A study of Drosophila melanogaster with 3 samples.

Results

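The binding sites of Grainy head (Grh) on the X chromosome of Drosophila melanogaster are described here, as the peaks that lay on X with a start below 20000000 in the dm3 genome build. They were chosen by position alone. They numbered 177 of the 1638 peaks of a mouse anti-Grh antibody, or 10.8% of that list (exact 95% interval 9.34 to 12.4%), and 1940 of the 12158 peaks of a rabbit anti-Grh antibody, or 16.0% (15.3 to 16.6%). Each immunoprecipitation used w1118 embryos collected at 13 to 16 h of age and fixed in 1.8% formaldehyde, and there was 1 library per antibody. The library made with rabbit IgG was not analysed here. The labels name neither the sex of the embryos nor a tissue. The peaks are taken here as those of whole embryos, in which cells that express Grh are mixed with cells that do not.

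Grh is the founding member of the Grainyhead family of transcription factors. In flies it is made in the epidermis, the trachea and other epithelia and in part of the nervous system, where it switches on genes of the cuticle, of cell adhesion and of wound repair and helps to open the chromatin of epithelial enhancers. As background on X, male flies carry a single copy of it and raise its transcription with the MSL complex, a dosage-compensation machinery that spreads along X. In the dm3 build X is numbered from its telomere towards the centromere. The first 20 Mb leave out the stretch next to the centromere, and the heterochromatic X sequences are kept apart. Whether each stretch is euchromatic was not checked, since no annotation of this build was used, and for the same reason no gene is named from a position.

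Arms 2L, 3L and 3R served as reference, each over 20 Mb away from the centromere: below 20 Mb on 2L and 3L, which are numbered from the telomere, and from 7 to 27 Mb on 3R, which is numbered from the centromere. Each deposited peak is an interval of 2 bp and is named by its first base, counted from 1. Its score is the authors' own, of unstated unit, and was used for orders and medians within a list and for correlations between paired peaks. Peaks of the antibodies were called shared, or partners, where they lay within 250 bp of each other. Read depths are unknown. All intervals are exact 95% intervals and cover counting error only. No test across libraries was possible with 1 library per antibody, and peaks, being crowded, are not independent counts.

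The mouse antibody gave fewer peaks per Mb on X than on each of the reference arms, and the rabbit antibody gave nearly as many. X carried 8.85 mouse peaks per Mb (7.59 to 10.2), against 13.2 on 2L, 14.6 on 3L and 15.4 on 3R. The ratio of X to the 3 arms together was 0.62 (0.52 to 0.73). It was 0.67 (0.55 to 0.82) against 2L, 0.61 (0.50 to 0.74) against 3L and 0.58 (0.48 to 0.70) against 3R, so each interval lay below 1. Of rabbit peaks X carried 97.0 per Mb (92.7 to 101.4), which lay between the 94.2 of 2L and the 105.8 of 3R, with 3L at 109.2. The rabbit ratio to the 3 arms was 0.94 (0.89 to 0.99), with 1.03 (0.97 to 1.10) against 2L alone. For every 100 rabbit peaks there were 9.12 mouse peaks on X and 13.9 on the reference arms. The odds ratio of X, mouse over rabbit, was 0.66 (0.55 to 0.78), and it stayed between 0.63 and 0.68 with each arm alone as the reference.

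When the rabbit list was shortened by score to 1638 peaks, the length of the mouse list, 251 of them lay on X, and the odds ratio was 0.68 (0.55 to 0.85). When it was shortened instead by the authors' numbering, 227 lay on X, the rabbit ratio of X to the reference arms was 0.79 and the odds ratio was 0.78 (0.62 to 0.98). The size of the difference between the antibodies thus moved with the order used to shorten the list.

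Along X the mouse peaks were spread in low numbers over the whole stretch, with no window of 1 Mb empty. The 20 windows held between 4 and 15 mouse peaks, with a median of 9 (quartiles 6.5 and 11). The 60 windows of the reference arms held between 3 and 26, with a median of 14. Of the reference windows 25 held over 15 mouse peaks, and of the X windows 0 did. The fullest X windows for the mouse antibody began at 2 Mb with 15 peaks, at 17 Mb with 14 and at 10 Mb with 12. The emptiest began at 5 Mb and at 19 Mb with 4 each, and at 11 Mb with 5, a count also found in the windows from 13 and from 15 Mb. By stretches of 5 Mb, the mouse antibody gave 53 peaks in the first, next to the telomere, then 42, 41 and 41. Each of these stretches was below the reference mean of 14.3 mouse peaks per Mb, the first at 10.6 and the others at 8.40, 8.20 and 8.20.

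The rabbit counts per window had a narrower range on X than on any of the reference arms. Counts per 1 Mb ran from 71 to 134 on X, with a median of 98 (quartiles 88.8 and 105.2). They ran from 38 to 132 on 2L, from 65 to 155 on 3L and from 54 to 190 on 3R. The variance-to-mean ratio of these counts was 2.40 on X, against 6.61 on 2L, 4.87 on 3L and 7.80 on 3R. No test of these ratios was made, since neighbouring windows are not independent. Within 100 kb windows the corresponding ratios were close, 3.91 on X and 4.19 to 4.25 on the reference arms, so the narrower spread on X was seen at the wider scale. The fullest X window for the rabbit antibody began at 1 Mb with 134 peaks, followed by those from 17 Mb with 114 and from 6 Mb with 113. The lowest counts were 71 from 15 Mb, 72 from 4 Mb and 76 from 14 Mb.

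**Figure D1:**
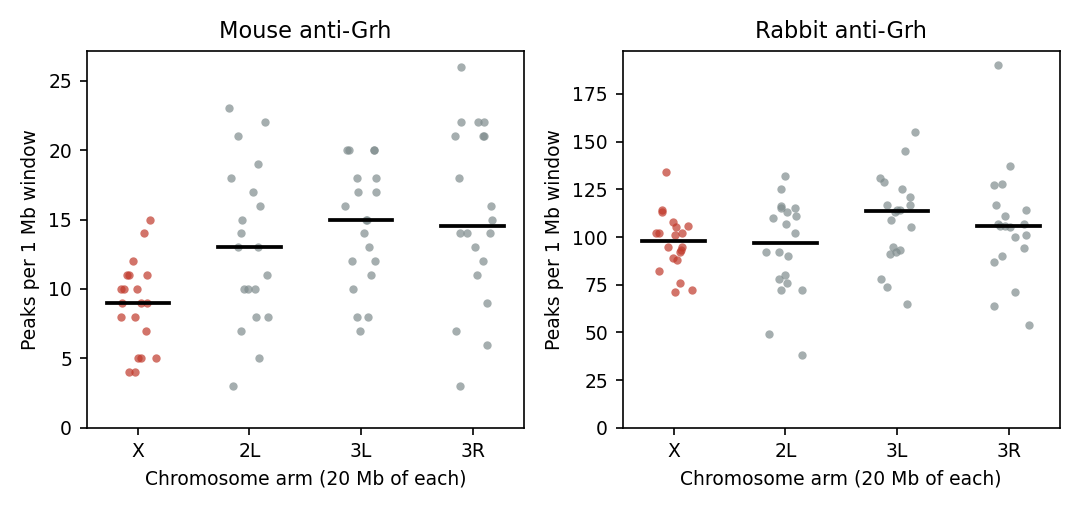
Peaks per 1 Mb window (vertical axes, starting at 0) of the mouse antibody (left) and the rabbit antibody (right), on 20 Mb each of X (red) and of 2L, 3L and 3R (grey); each point is 1 window and the black bar is the median of 20 windows. The mouse points on X lie between 4 and 15 with a median of 9, below the medians of 13, 15 and 14.5 on 2L, 3L and 3R, while the rabbit median on X, 98, lies next to that of 2L, 97.

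Some X windows were full for both antibodies and others for the rabbit antibody alone. The window from 17 Mb came second in both lists, with 14 mouse and 114 rabbit peaks. The window from 5 Mb held 102 rabbit peaks but 4 mouse peaks, or 3.92 mouse peaks per 100 rabbit peaks, and so did the window from 19 Mb. The window from 14 Mb was among the poorest for the rabbit antibody, with 76 peaks, and held 11 mouse peaks, or 14.5 per 100, the highest of the 20. The median over X windows was 8.97 mouse peaks per 100 rabbit peaks (range 3.92 to 14.5) and that over reference windows 14.01 (range 4.17 to 23.9). Across windows of 1 Mb the counts of the antibodies had a Spearman correlation of 0.39 on X (20 windows), 0.65 on 2L, 0.62 on 3L and 0.48 on 3R. Across windows of 100 kb it was 0.54 on X (200 windows), 0.65 on 2L, 0.66 on 3L and 0.59 on 3R. These values are descriptions, as all windows come from the same pair of libraries and neighbours share local sequence. The 1 Mb counts of both antibodies also varied less on X than on each reference arm. A narrower spread can lower a correlation, and its part was not tested.

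**Figure D2:**
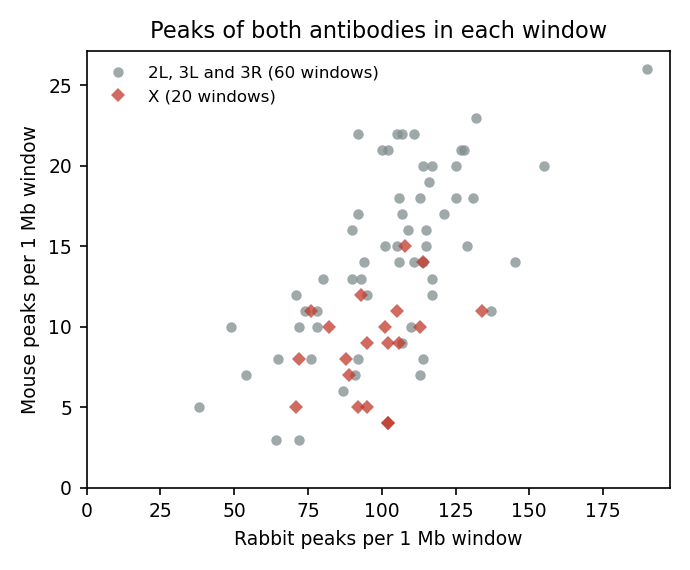
Mouse peaks (vertical axis) against rabbit peaks (horizontal axis) in each 1 Mb window, for the 20 windows of X (red diamonds) and the 60 windows of 2L, 3L and 3R (grey circles). The X windows lie in the lower middle, with at most 15 mouse peaks at 71 to 134 rabbit peaks.

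In windows of 100 kb, most of X was without a mouse peak and nearly all of it had a rabbit peak. Of 200 X windows 106 had 0 mouse peaks, or 53.0% (45.8 to 60.1%), against 217 of 600 reference windows, or 36.2% (32.3 to 40.2%). By arm the empty share was 43.0% on 2L, 31.0% on 3L and 34.5% on 3R. For the rabbit antibody 8 X windows were empty, or 4.0% (1.74 to 7.73%), against 3.0% (1.79 to 4.70%) of the reference windows. Both antibodies had a peak in 94 X windows and neither had one in 8. The remaining 98 windows held rabbit peaks but no mouse peak, and 0 held the reverse. On the reference arms 199 of 600 windows held rabbit peaks alone, 0 held mouse peaks alone and 18 held neither. X windows without a mouse peak held a median of 6 rabbit peaks, against 13 in X windows with a mouse peak. The corresponding medians on the reference arms were 5 and 12. Windows with 4 or more mouse peaks numbered 6 of 200 on X and 62 of 600 on the reference arms. Windows with 20 or more rabbit peaks numbered 16 of 200 on X (8.0%) and 57 of 600 on the reference arms (9.50%).

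The lower mouse count on X was also seen when windows were classed by their number of rabbit peaks. Rabbit counts per window were close, with a mean of 9.70 on X and 10.3 on the reference arms. These classes thus largely restate the lower mouse count and do not show a separate difference. The class of 20 or more is open, and ran up to 29 on X and 47 on the reference arms. In windows with 5 to 9 rabbit peaks, 36.7% of 60 X windows held a mouse peak (24.6 to 50.1%), against 54.0% of 161 reference windows (46.0 to 61.9%). With 10 to 14 rabbit peaks the shares were 64.7% of 51 (50.1 to 77.6%) and 81.7% of 164 (74.9 to 87.3%). With 15 to 19 they were 75% of 28 (55.1 to 89.3%) and 89.9% of 89 (81.7 to 95.3%). With fewer than 5 rabbit peaks the shares were 8.89% and 20.9%, and with 20 or more 87.5% and 96.5%. In each class the intervals overlapped, and the X share was the lower. The mean number of mouse peaks per window was lower on X too, 0.60 against 0.86 with 5 to 9 rabbit peaks, 1.29 against 1.84 with 10 to 14 and 1.29 against 2.26 with 15 to 19.

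**Figure D3:**
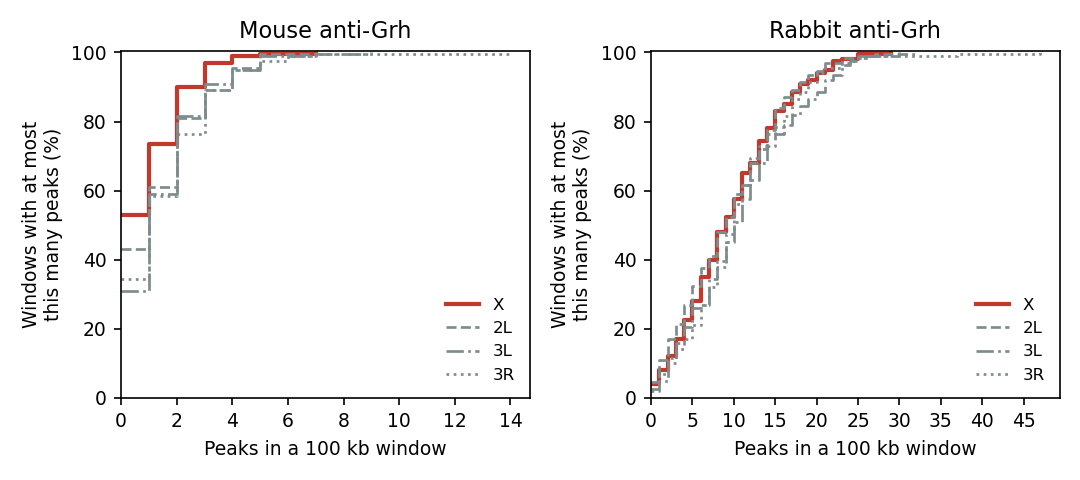
Share of 100 kb windows (vertical axes, percent) that hold at most the number of peaks on the horizontal axis, for the mouse antibody (left) and the rabbit antibody (right), with X as a solid red line and 2L, 3L and 3R as grey lines (200 windows an arm). For the mouse antibody the X line starts at 53.0% for 0 peaks and lies above the other arms, while for the rabbit antibody the 4 lines run close together.

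The densest place on X for both antibodies was the stretch from 1900001 to 2100000. Its second window, from 2000001 to 2100000, held 29 rabbit and 7 mouse peaks, the most of any X window for each antibody. Its first window, from 1900001, held 25 rabbit and 4 mouse peaks. The scores there were moderate, with a highest rabbit score of 21.2 and a highest mouse score of 7.50 in the window from 2000001. The largest group of rabbit peaks on X, chained at gaps of up to 1 kb, lay in that window: 9 peaks between 2029014 and 2032622, a span of 3609 bp, with scores from 2.995 to 21.2. This group took in 4 mouse peaks, of which the highest score was 6.12. Those 4 mouse peaks made up a pair at 2029186 and 2029763 and another at 2031213 and 2031545.

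The others of the 5 fullest rabbit windows held between 1 and 3 mouse peaks. Over all 16 X windows with 20 or more rabbit peaks, those from 1900001 and 2000001 included, the mean was 2.19. Of these 16 windows 87.5% held a mouse peak. The window from 1100001 held 25 rabbit peaks and 1 mouse peak, and its highest rabbit score was 75.8. The window from 10600001 held 25 rabbit and 2 mouse peaks, and that from 17500001 held 23 and 3. The fullest rabbit window with 0 mouse peaks, a window singled out after its values were seen, was that from 13200001, with 22 rabbit peaks and a highest score of 16.5. For the mouse antibody, the window from 10800001 held 5 peaks, and the windows from 7200001 and 11800001 were among 4 that held 4 each. The window from 11800001 had the highest mouse score of the 5 fullest, 13.9.

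Close groups took in a larger share of the rabbit list than of the mouse list on X. The rabbit list was also far denser there, at 97.0 against 8.85 peaks per Mb. A denser list has more close neighbours, and the part of density was not tested. Of the 1940 rabbit peaks 1073, or 55.3%, had a neighbour chained to them at gaps of up to 1 kb, against 52.8% on 2L, 51.1% on 3L and 51.4% on 3R. They formed 270 groups of 2 and 148 of 3 or more. After the group of 9, the largest were 2 groups of 8, from 3636100 to 3638926 and from 12647730 to 12650555. Of the 177 mouse peaks 24, or 13.6%, lay in 12 groups of 2, and 0 groups of 3 or more were found on X. The mouse share was 27.4% on 2L, 13.75% on 3L and 22.8% on 3R, so that X was close to 3L and below the other two. Groups of 3 or more mouse peaks numbered 6 on 2L, 2 on 3L and 3 on 3R. Rabbit groups on X held a mouse peak more often when they were larger, 6.34% of single peaks (4.81 to 8.18%), 20.7% of groups of 2 (16.1 to 26.1%) and 33.8% of groups of 3 or more (26.2 to 42.0%), and a larger group also spans more bases in which a mouse peak can fall.

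Long stretches of X had no mouse peak, while few had no rabbit peak. The longest gap between neighbouring mouse peaks, 870389 bp, ran from 12649230 to 13519619 and held 76 rabbit peaks with scores of up to 59.9. It took in 8 empty mouse windows of 100 kb in a row. Next came 706570 bp from 18541258, with 66 rabbit peaks inside, 674992 bp from 10831003, with 42, 571049 bp from 11897939, with 30, and 566580 bp from 14152971, with 17. Being gaps between mouse peaks, these stretches were free of mouse peaks by definition. In each of them the rabbit peaks were less dense than the X mean of 97.0 per Mb. They were least dense in the stretch from 14152971. The median mouse gap was 56752 bp on X, against 30714 bp on 2L, 36432 bp on 3L and 26639 bp on 3R.

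Among gaps with both edges below 20 Mb, the longest rabbit gap on X was 201168 bp, from 4601899 to 4803067, and it held 0 mouse peaks. The next were 190460 bp from 14183914, 169105 bp from 11050276, 166686 bp from 7616109 and 159420 bp from 7339217. Mouse peaks were found in 1 of these 5 gaps, that from 7616109, as a single peak with a score of 3.09, which lay within 250 bp of the rabbit peak at its edge. The 8 rabbit-empty windows of 100 kb began at 4700001, 6300001, 8800001, 10000001, 10900001, 11100001, 14200001 and 19900001. No 2 of them were neighbours. The median rabbit gap was 2762 bp on X and between 2900 and 3234 bp on the reference arms, and the longest gaps of those arms ran from 164759 to 223110 bp, also between peaks within their 20 Mb. The gap that spans the 20 Mb limit of X, from 19855674 to 20060003, was longer than that from 4601899 and was not counted.

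Every mouse peak on X had a rabbit partner. The count was 177 of 177 (97.9 to 100%), so that 0 lacked a partner, beside 16 of 1638 in the whole mouse list, or 0.977%. It was 262 of 263 on 2L, 291 of 291 on 3L and 295 of 307 on 3R, so X was like 2L and 3L in this. A mouse partner was found for 196 of the 1940 rabbit peaks on X, or 10.1% (8.80 to 11.5%), beside 14.4% of the whole rabbit list. The share was 14.7% on 2L, 14.5% on 3L and 14.8% on 3R. Few mouse peaks lacked a partner on these arms. The share of rabbit peaks with a partner thus largely restates the count of mouse peaks per 100 rabbit peaks. That count was 9.12 on X and 13.9 on the reference arms. The lower share on X is therefore not a difference separate from its lower mouse count. Rabbit peaks without a partner lay farther from the mouse list on X, a median of 31754 bp from the nearest mouse peak (quartiles 8555 and 92824), against 17702 bp (4842 and 45562) on the reference arms. This distance depends on how many mouse peaks an arm holds and on how they are spaced, and the part of each was not tested.

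In percentage points, the gap between X and the reference arms was widest among the high-scoring rabbit peaks. Of the X peaks in the top 20% of the rabbit list, with scores of 11.8 or more, 136 of 380 had a mouse partner, or 35.8% (31.0 to 40.8%). On the reference arms 626 of 1244 did, or 50.3% (47.5 to 53.1%), and the odds ratio of X over reference was 0.55 (0.43 to 0.70). Between 20% and 40% the shares were 11.3% (8.30 to 14.8%) and 15.9% (13.9 to 18.1%), with an odds ratio of 0.67 (0.46 to 0.96). Between 40% and 60% they were 1.69% and 4.23%, with an odds ratio of 0.39 (0.15 to 0.87). In the lower 40% of the list at most 1.83% of peaks had a partner on X or on the reference arms, and both intervals of the odds ratio took in 1. X held nearly its even part of each score class, from 19.2 to 21.4% of its peaks. The lower mouse count on X enters the shares of these classes too, and its part was not tested.

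At the very top of the list X and the other arms could not be told apart at this number of peaks. Of the 50 highest-scoring rabbit peaks of each arm, 16 had a partner on X (32.0%, 19.5 to 46.7%), 22 on 2L, 17 on 3L and 21 on 3R. Of the highest 200, 83 had a partner on X (41.5%, 34.6 to 48.7%), against 120 on 2L (60%, 52.9 to 66.9%), 108 on 3L (54.0%, 46.8 to 61.1%) and 110 on 3R (55.0%, 47.8 to 62.0%). When both lists had 1638 peaks by score, 43.0% of X rabbit peaks had a mouse partner (36.8 to 49.4%) and 56.0% of reference rabbit peaks did (52.6 to 59.4%). In the other direction, 59.9% of X mouse peaks (52.3 to 67.2%) and 55.3% of reference mouse peaks (51.9 to 58.6%) had a rabbit partner at that length.

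**Figure D4:**
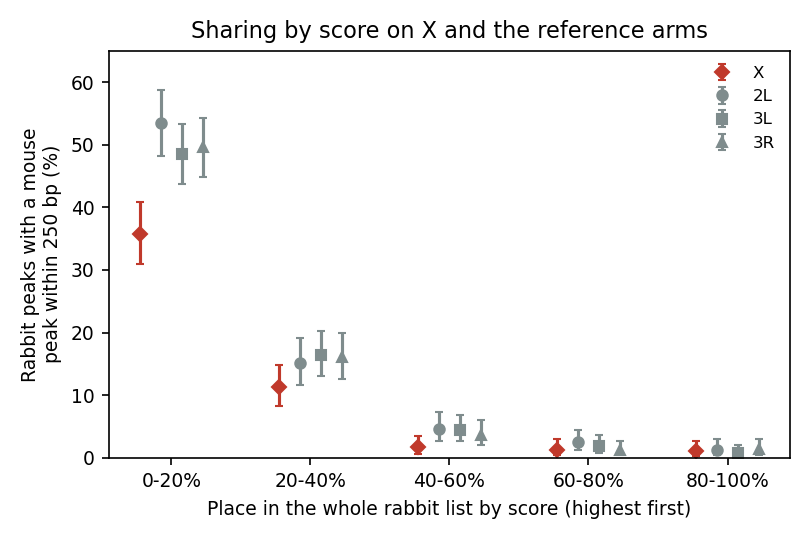
Share of rabbit peaks with a mouse peak within 250 bp (vertical axis, percent) in 5 equal parts of the whole rabbit list by score, highest first (horizontal axis), on X (red diamonds) and on 2L, 3L and 3R (grey symbols); bars are exact 95% binomial intervals, which cover counting error only. In the top 20% X stands at 35.8% and the reference arms between 48.5 and 53.5%, and in the lower 40% all 4 arms lie at 2.45% or lower.

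The peaks that were found on X had scores close to those elsewhere. The median mouse score was 5.42 on X (quartiles 3.52 and 7.15, range 2.10 to 21.9), against 5.11 on 2L, 5.33 on 3L and 5.26 on 3R. The share of mouse peaks in the top 10% of the list was 13.0% on X (8.42 to 18.9%) and 9.52% on the reference arms (7.65 to 11.7%). The median rabbit score was 6.01 on X (quartiles 3.95 and 9.87, range 1.996 to 132) and 5.98 on the reference arms (quartiles 3.90 and 10.2). X rabbit peaks with a partner had a median score of 16.2 and those without 5.64, beside 15.5 and 5.41 on the reference arms.

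Shared sites on X also looked like those of the other arms in position and in score. There were 177 pairs of peaks that were each other's nearest. Their centres lay a median of 10 bp apart (quartiles 5 and 21 bp, at most 208 bp), beside 11 bp (5 and 20) on the reference arms. The rabbit partner of an X mouse peak had a median score of 16.6 (quartiles 11.7 and 25.05), beside 16.3 (11.5 and 23.7) over 838 reference pairs. Scores of the antibodies had a Spearman correlation of 0.74 and a Pearson correlation of 0.76 on the log scale over the X pairs, beside 0.71 and 0.71 over the reference pairs. These correlations are descriptions across sites of the same libraries.

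**Figure D5:**
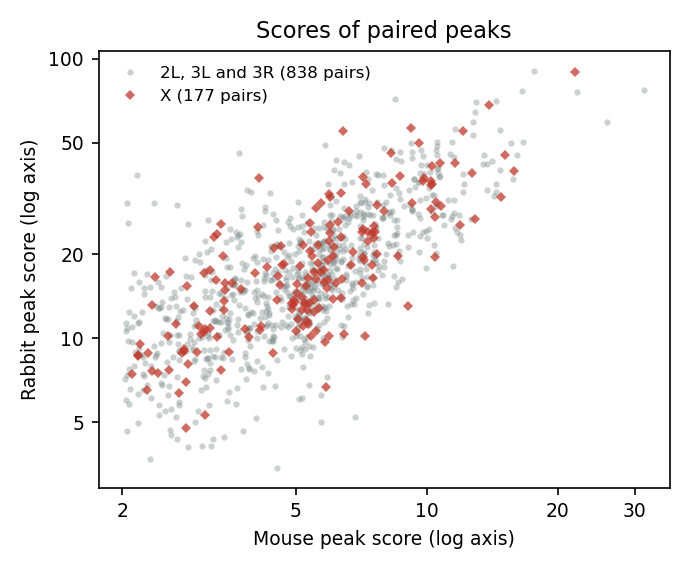
Rabbit score (vertical, log axis) against mouse score (horizontal, log axis) of peaks that are each other's nearest within 250 bp; red diamonds are the 177 pairs on X and grey circles the 838 pairs on 2L, 3L and 3R. The X pairs lie within the cloud of the reference pairs, with Spearman correlations of 0.74 and 0.71.

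The strongest shared site on X lay at 17207611, where the mouse score was 21.9 and the rabbit peak, 2 bp away, scored 89.3. Its order by score on X was 1 in the mouse and 4 in the rabbit list, and its order in the whole lists was 4 and 20. The second, at 11897939, had scores of 13.9 and 68.2 and stood at the left edge of the mouse-free stretch of 571049 bp. The next were 2 sites in the first Mb, next to the telomere, at 653708, with scores of 12.1 and 55.1, and at 678749, with scores of 9.20 and 56.7. The site at 6894699 had scores of 9.57 and 50.1, and that at 19247828, at the right edge of the mouse-free stretch of 706570 bp, had scores of 8.27 and 45.8.

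The other four of the first 10 lay at 17728120, 8331829, 8090102 and 15682948. The mouse antibody gave them scores of 10.3 to 15.2 and the rabbit antibody 41.2 to 45.2. Over all 10 the centres were between 1 and 19 bp apart. They were spread along the arm, from the first to the last Mb of the stretch, with 2 of them in the window of 1 Mb from 17 Mb, 2 in that from 8 Mb and 2 in the first Mb. At 6 of the 10 no further mouse peak lay within 10 kb. One of these, the site at 17728120, lay in a window of 100 kb with 21 rabbit peaks and no further mouse peak.

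High rabbit scores on X did not always come with a mouse peak. Of the 10 highest-scoring rabbit peaks on X, 9 had no partner, the exception being the site at 17207611. Peaks without a partner were also the majority at the top of the other arms: of the 20 highest-scoring rabbit peaks of each arm, 3 had a partner on X (15%, 3.21 to 37.9%), 5 on 2L, 3 on 3L and 5 on 3R. The highest on X, at 17645869, scored 132, and the closest mouse peak, with a score of 5.98, was 50627 bp off. The peak at 423980 scored 114 and lay 157367 bp away, and that at 11589040 scored 103.5 and lay 83045 bp away. The peak at 5418753 (score 81.4) lay 105019 bp away and that at 3028720 (score 78.8) 35130 bp away. The mouse list had no X peak without a rabbit peak, and its 10 highest all had a rabbit peak within 93 bp, with rabbit scores from 25.4 to 89.3. The 10 highest-scoring rabbit peaks and the 10 highest-scoring mouse peaks on X thus had 1 site in common. Whether the peaks without a partner are also found with rabbit IgG was not tested.

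The limit at 20 Mb fell in a sparse place in both lists. The last mouse peak below it lay at 19645819 (score 5.80) and the first above it at 20108689 (score 7.52). The last rabbit peak below it lay at 19855674 (score 5.33) and the first above it at 20060003 (score 2.81). Beyond the limit X held a further 6 mouse and 93 rabbit peaks.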

How the data were processed

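Chromatin immunoprecipitation followed by sequencing was done with 3 libraries, of which those of the mouse and the rabbit anti-Grh antibody were used. Reads were aligned with Bowtie to dm3, per the submitters' processing notes. How peaks were called, and whether IgG served as control, is not given in the sources used here. From each library the authors deposited 1 list, with a 2 bp interval, a number, a rank and a score for each peak; the unit of the score is not stated, and depth is unknown.

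Members, reference arms and the rule for named sites were chosen with earlier results of these data known. Named sites were the 10 pairs whose worse order of score on X stood highest, the 5 highest unmatched rabbit peaks, the 5 fullest windows of 100 kb and 5 longest gaps per list, the 3 fullest and emptiest windows of 1 Mb, and the largest groups. Windows began at position 1. Density intervals are exact Poisson, shares exact binomial (Clopper-Pearson), and ratios and odds ratios exact conditional 95% intervals. Alternatives were other match distances, windows, list lengths and reference stretches. Counting and matching were checked on simulated data. Computations used SciPy 1.17.1, NumPy 2.4.6 and pandas 2.3.3 under Python 3.11.15, and figures matplotlib 3.10.9.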

Additional observations from a re-analysis of the deposited data

How the results depend on the processing

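Of 52 alternative values for 19 results, 34 stayed within the exact interval of the reported value (for medians of windows, correlations, gaps and groups, within 1.5 times). The other 18 moved outside it. Only the correlations could have changed sign, and they did not. With the upper 50% of each list by score, X carried 4.90 mouse and 48.7 rabbit peaks per Mb, 65.5% of its 100 kb windows had no mouse peak, and the median scores were 6.94 and 9.84, by construction. Chained at 1 kb, X carried 64.25 rabbit groups per Mb, with a median of 64.5 per window. With all of X it carried 90.7 rabbit peaks per Mb, and the rabbit ratio to the reference arms was 0.88. At equal list lengths by the authors' numbering, a setting chosen after seeing the data, that ratio was 0.79 and the odds ratio 0.78; the cause was not tested. The share of X rabbit peaks with a mouse peak was 12.6% within 500 bp, 17.2% within 1000 bp and 43.0% at equal lengths by score, and that of X mouse peaks 96.6% within 100 bp and 59.9% at equal lengths. Groups of mouse peaks numbered 6 when chained at 500 bp and 19 at 2 kb. No paired analysis was possible because there is 1 library per antibody, so leaving out replicates did not apply. Depth is unknown, so a place without a mouse peak is not shown to be unbound.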

Other observations

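Rabbit peaks on X with a mouse partner had a further rabbit peak within 1 kb more often than those without, 141 of 196 (71.9%, exact 95% interval 65.1 to 78.1%) against 932 of 1744 (53.4%, 51.1 to 55.8%). On the reference arms the shares were 62.0% (58.8 to 65.2%) and 50.0% (48.6 to 51.4%). Some rabbit peaks had the same mouse partner, as the 196 on X were matched to 177 mouse peaks. Such peaks lie within 1 kb of each other by the matching rule, so the higher share is in part built in.

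The deposited rank was often common to close rabbit peaks. Of 655 neighbours on X within 1 kb of each other 233, or 35.6%, had a rank in common, and of 524 neighbours more than 10 kb apart 0 did. It was not tested whether such peaks belong to 1 called region. The 1940 rabbit peaks on X had 1240 distinct ranks. In the mouse list 1 of 12 neighbours within 1 kb and 3 of 129 beyond 10 kb had a rank in common. The 177 mouse peaks on X had 118 distinct ranks. In that list a common rank was thus not confined to close peaks. Neighbours between 1 and 10 kb apart were not counted in either list.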
